A study of Mus musculus with 8 samples.

Results

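The Hox genes of mouse nephron progenitors are described here: every row of the deposited gene table whose symbol is Hox, followed by a cluster letter and a paralogue number. That rule uses names and no measured value, and it found 39 genes of the 24539 in the table. There were 11 in the HoxA cluster, 10 in HoxB, 9 in HoxC and 9 in HoxD. RNA was sequenced from kidney cells sorted at E18.5 for Six2GFPcre, a transgene in which sequences of Six2 drive a fusion of GFP and the recombinase Cre in nephron progenitors, the cells that form nephrons. All 4 groups carried this transgene, and each had 2 libraries. The KO-labelled group was Smo c/c, with 2 conditional alleles of Smo, the membrane protein that relays Hedgehog signals, and the Het-labelled group was Smo c/+. The WT-labelled group was Smo +/+, and the SmoM2-labelled group was Smo +/+ with Rosa26 SmoM2/+, an allele from which Cre turns on an active form of Smo. Cre acts here only in cells that have used the Six2 sequences and in their descendants, so the alleles are recombined in that lineage and not throughout the kidney. The labels do not say whether the 2 libraries of a group came from separate embryos or litters. The p-values therefore measure the spread between these libraries, with each gene's spread drawn toward a trend over all tested genes.

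Hox genes encode homeodomain transcription factors that give cells their position along the body axis. Within a cluster the genes stand in the order of the axial levels at which they begin to be used, and genes with the same number in different clusters are paralogues with overlapping functions. In the kidney the Hox11 paralogues Hoxa11, Hoxc11 and Hoxd11 are known to act with Eya1 and Pax2 in the early kidney mesenchyme to switch on Six2 and Gdnf, and mice that lack all of them form no kidney. The Hox10 paralogues are known for their role in the kidney stroma. Hox proteins bind DNA together with Pbx and Meis proteins.

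Listed counts summed to between 4422305 and 10305398 per library, with the KO-labelled libraries the shallowest. Smo went against a label: it stood at 2.78 and 2.40 RPKM (reads scaled by gene length and library total, the authors' values) in the KO-labelled libraries, 2.95 and 4.85 in the Het-labelled, 77.3 and 74.7 in the WT-labelled and 122 and 126 in the SmoM2-labelled. The Het-labelled libraries thus held far less Smo than the WT-labelled. Their log2 difference from the KO-labelled (-0.65, KO- minus Het-labelled, with an edgeR adjusted p of 0.0906) did not pass the threshold of 0.05. It passed in 2 of 18 alternative analyses. These were edgeR on every gene with a count (adjusted p 0.00822) and DESeq2, another test on counts (adjusted p 0.0294). In SmoM2- against WT-labelled libraries Smo differed by 0.74 (edgeR adjusted p 0.132), which did not pass either, and it passed in 4 of 19 alternatives. All groups are named by their labels. The 9 nephron progenitor markers summed to 1339 to 1513 RPKM for KO-labelled libraries and 1511 to 1723 for Het-labelled ones. For WT-labelled libraries their sum was 961 to 1132, and for SmoM2-labelled ones 984 to 985. In every library 6 endothelial markers summed to at most 0.977. The 9 collecting duct markers summed to 3.73 to 4.55 RPKM for KO-labelled libraries and 2.56 to 2.81 for Het-labelled ones. Their sum was 6.81 to 7.53 for WT-labelled and 10.5 to 14.6 for SmoM2-labelled libraries. The 5 immune markers summed to 9.79 to 13.4, 28.9 to 30.5, 18.1 to 19.3 and 16.4 to 20.2 RPKM in that order of groups. Cd68 among them, named after its values were seen, was lower in KO- against WT-labelled libraries (log2 -0.96, edgeR adjusted p 0.0133). Of 8 stroma markers, Foxd1 was at 4.42 and 1.29 RPKM in the KO-labelled, 7.42 and 4.78 in the Het-labelled, 67.7 and 55.2 in the WT-labelled and 125 and 97.4 in the SmoM2-labelled libraries, and Tbx18 was at or under 0.0878 everywhere. Tcf21, in the same list, went the other way, at 92.5 and 93.8 RPKM in the KO-labelled and 75.9 and 82.4 in the Het-labelled libraries. It was at 28.7 and 14.2 RPKM in the WT-labelled and 22.9 and 18.2 in the SmoM2-labelled libraries. The other tested stroma markers were not called in KO- against WT-labelled libraries. Col3a1 of that list, named after its values were seen, was uneven within pairs, at 24.0 and 2.73 RPKM in the KO-labelled libraries. It was at 3.36 and 11.0 in the Het-labelled, 15.4 and 5.99 in the WT-labelled and 13.0 and 9.45 in the SmoM2-labelled. The stroma sum, which adds the opposed Foxd1 and Tcf21, was 103 to 132 RPKM for KO-labelled libraries and 93.8 to 109 for Het-labelled ones. It was 81.5 to 125 for WT-labelled and 131 to 169 for SmoM2-labelled libraries. The 10 early nephron markers summed to 395 to 468 RPKM for KO-labelled libraries, 162 to 217 for Het-labelled, 126 to 162 for WT-labelled and 116 to 150 for SmoM2-labelled ones. The 8 immediate early genes summed to 1488 to 2148, 2582 to 2651, 975 to 975 and 1062 to 1521 RPKM in that order of groups. Both KO-labelled libraries were male by Y-linked and Xist counts, both Het-labelled libraries were female, and the other groups held 1 of each. In bulk RNA, fewer cells of a type and less RNA per cell cannot be told apart.

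Sorted nephron progenitors held RNA of nearly the whole Hox complement except its ends. The genes reported here lie on mm10 (GRCm38) at chr6:52162417-52260880 on the minus strand for HoxA, and on the plus strand at chr11:96194316-96368256 for HoxB, chr15:102921103-103036852 for HoxC and chr2:74668310-74765142 for HoxD. All 39 are annotated as protein-coding. A mean of at least 10 RPKM over the 8 libraries was reached by 29 members and at least 30 RPKM by 15. Only 7 members had too few counts to be tested: Hoxa13, Hoxb13, Hoxc13 and Hoxd13, which specify the end of the trunk and the digits, Hoxc12, and the hindbrain genes Hoxb1 and Hoxd1. Hoxb13 had 0 counts in every library, which allows up to 3 counts, or between 0.279 and 0.664 CPM (counts scaled to the library size) by counting error alone, and no other untested member exceeded 8 counts in a library. The remaining 32 entered the tests. Hoxa2, a hindbrain gene, was tested at a low level, between 5.60 and 7.60 RPKM. Exons of 9 members overlap those of RNAs on the opposite strand, among them Hoxa3 and Hoxa7.

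**Figure D1:**
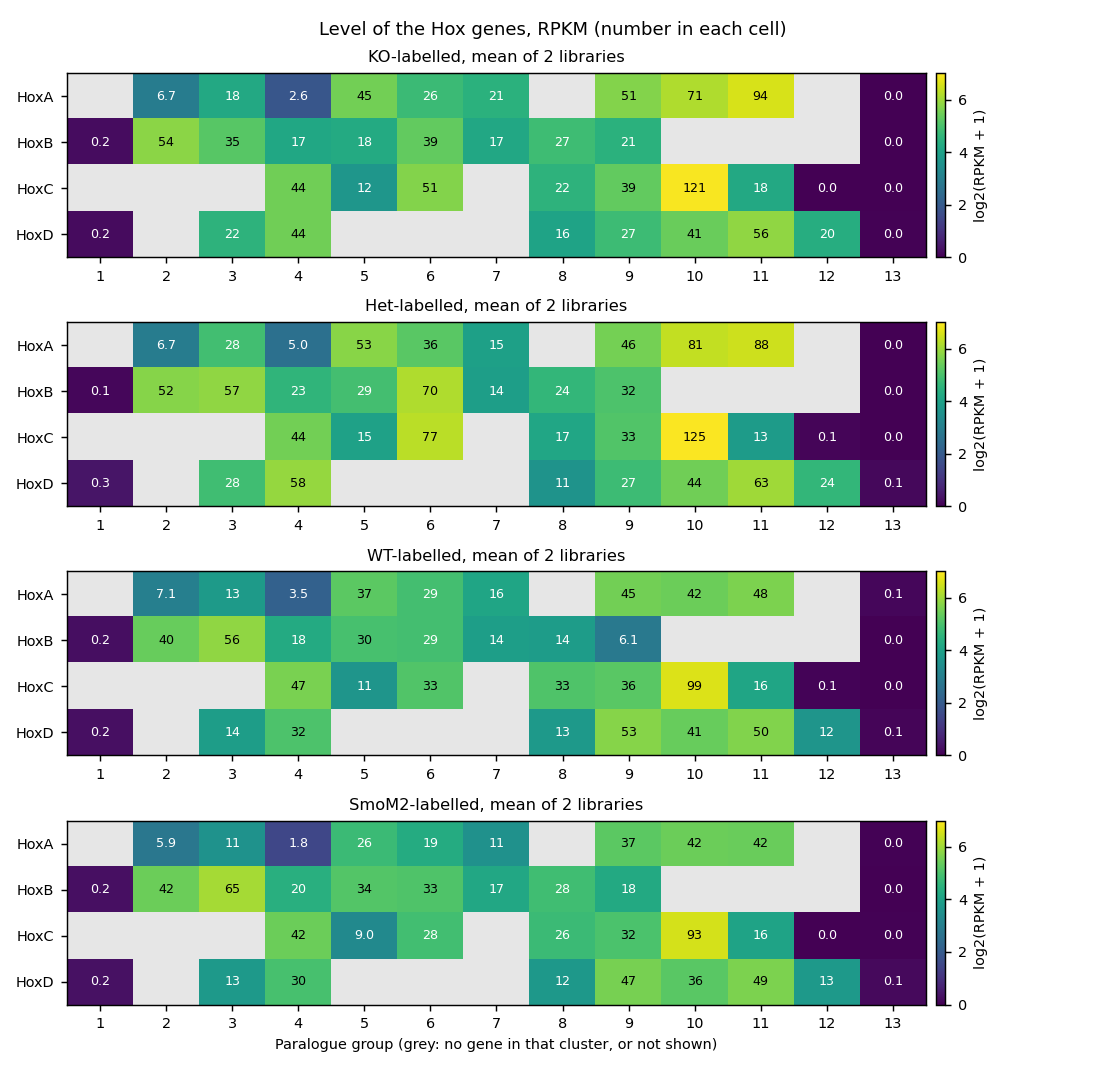
Mean level of the Hox genes shown, in RPKM, by cluster (rows) and paralogue group (columns), with 1 panel for each group of 2 libraries. Colour is log2(RPKM + 1) and the number in each cell is the RPKM. Hoxc10 is the highest cell in all 4 panels, and paralogue group 13 is near 0 in all of them.

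Hoxc10, known for a part in hindlimb patterning and motor neurons, had the highest level of all members in each group. It read 119 and 123 RPKM in the KO-labelled libraries, 124 and 125 in the Het-labelled, 98.8 and 98.5 in the WT-labelled and 82.6 and 102 in the SmoM2-labelled. In the WT-labelled libraries Hoxb3 followed at 56.1 ± 0.660 RPKM (SD, n = 2), then Hoxd9 at 52.5 ± 2.10, Hoxd11 at 50.4 ± 2.34, Hoxa11 at 48.2 ± 5.16 and Hoxc4 at 47.2 ± 5.84. From Hoxd9 to Hoxc4 neighbours in this order lay closer together than the SD of one of them. In the KO-labelled libraries the order after Hoxc10 was Hoxa11 at 94.0 ± 2.77 and Hoxa10 at 71.1 ± 2.08 RPKM, and in the Het-labelled it was Hoxa11 at 87.6 ± 1.53, Hoxa10 at 81.0 ± 1.28 and Hoxc6 at 77.0 ± 16.2. Hoxb3 stood at 65.3 ± 5.38 RPKM as the runner-up in the SmoM2-labelled libraries.

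Paralogue group 10 held the largest share of the summed Hox level, a mean of 19.96% of all Hox RPKM and between 18.0% and 22.7% in single libraries. Group 9 held 13.3%, group 11 held 13.2% and group 6 held 11.0% as means over all libraries. By counts in place of RPKM group 10 was again the largest at 19.5%, while group 11 held 16.6%, group 9 held 14.2%, group 3 held 12.5% and group 6 held 6.13%, so the order below group 10 rests on the scale. It also differed between groups, with 15.4% for group 11 and 12.6% for group 9 in the KO-labelled libraries against 12.2% and 14.8% in the WT-labelled. Group 13 was near the limit of detection, with a share of 0.0125%. Within the Hox11 paralogues Hoxa11 and Hoxd11 made up most of the level, while Hoxc11 stayed between 11.6 and 19.2 RPKM. Within the Hox10 paralogues Hoxd10, a gene of hindlimb innervation, read between 35.7 and 46.6 RPKM in all libraries.

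The clusters contributed shares of similar size, with a mean over all libraries of 26.7% for HoxA, 24.0% for HoxB, 27.7% for HoxC and 21.5% for HoxD. Shares of counts in place of RPKM exchanged the last pair, with 22.5% for HoxC and 25.8% for HoxD. The HoxA share was 30.7% ± 0.340 (SD, n = 2) for KO-labelled libraries, 28.9% ± 0.431 for Het-labelled, 25.7% ± 2.17 for WT-labelled and 21.7% ± 0.598 for SmoM2-labelled ones, and single libraries did not overlap between groups. For HoxB the shares were 21.0% ± 1.58, 24.3% ± 0.105, 22.2% ± 1.75 and 28.7% ± 1.65 in the same order. The SmoM2-labelled HoxB shares of 29.9% and 27.6% lay above all 6 other libraries. The summed Hox level was 1168 and 1027 RPKM in the KO-labelled libraries, 1194 and 1284 in the Het-labelled, 951 and 928 in the WT-labelled and 891 and 902 in the SmoM2-labelled. These sums do not overlap between any pair of groups. With 2 libraries against 2 no exact permutation test can go below p = 0.333, so the shares and sums are given as descriptions.

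**Figure D2:**
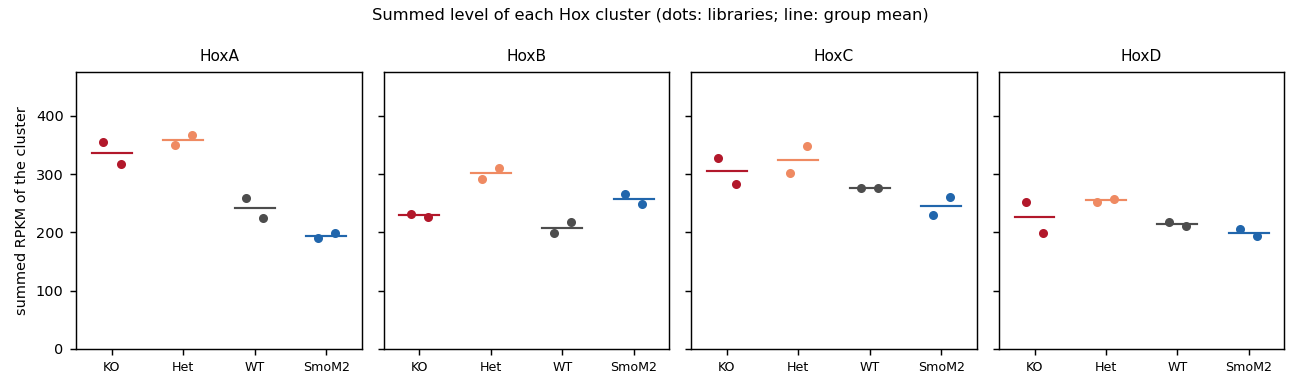
Summed RPKM of the genes of each Hox cluster, 1 dot per library and a line at the mean of the 2 libraries of each labelled group. HoxA sums were 355 and 317 in the KO-labelled libraries against 189 and 199 in the SmoM2-labelled, while HoxB sums were 232 and 227 against 266 and 249.

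Changes were tested with edgeR's quasi-likelihood method on the counts, fitted over all 13459 tested genes and 8 libraries, with Benjamini-Hochberg adjustment over all of them and a threshold of 0.05. Log2 changes below are from that fit, and levels are the authors' RPKM with replicate 1 before replicate 2. The comparisons of KO-, Het- and SmoM2-labelled with WT-labelled libraries share the WT-labelled libraries. In KO- against WT-labelled libraries, which ask what the loss of Smo changes, 9 of the 32 tested Hox genes passed the threshold, where 23% of all tested genes did. Of these, 5 were higher (11.6% of all genes were) and 4 were lower (11.4% of all genes were). In Het- against WT-labelled libraries 14 of 32 passed, beside 25.3% of all genes, with 12 higher (13.1% of all genes) and 2 lower (12.2% of all genes). The median log2 change of the 32 was 0.19 in KO- against WT-labelled libraries, where that of all tested genes was 0.03. In Het- against WT-labelled libraries it was 0.35, where that of all tested genes was -0.02. A test for any difference among the 4 groups called 18 of 32 Hox genes and 41% of all genes. Under it 7 of 10 tested HoxA genes, 5 of 8 in HoxB, 2 of 7 in HoxC and 4 of 7 in HoxD were called.

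**Figure D3:**
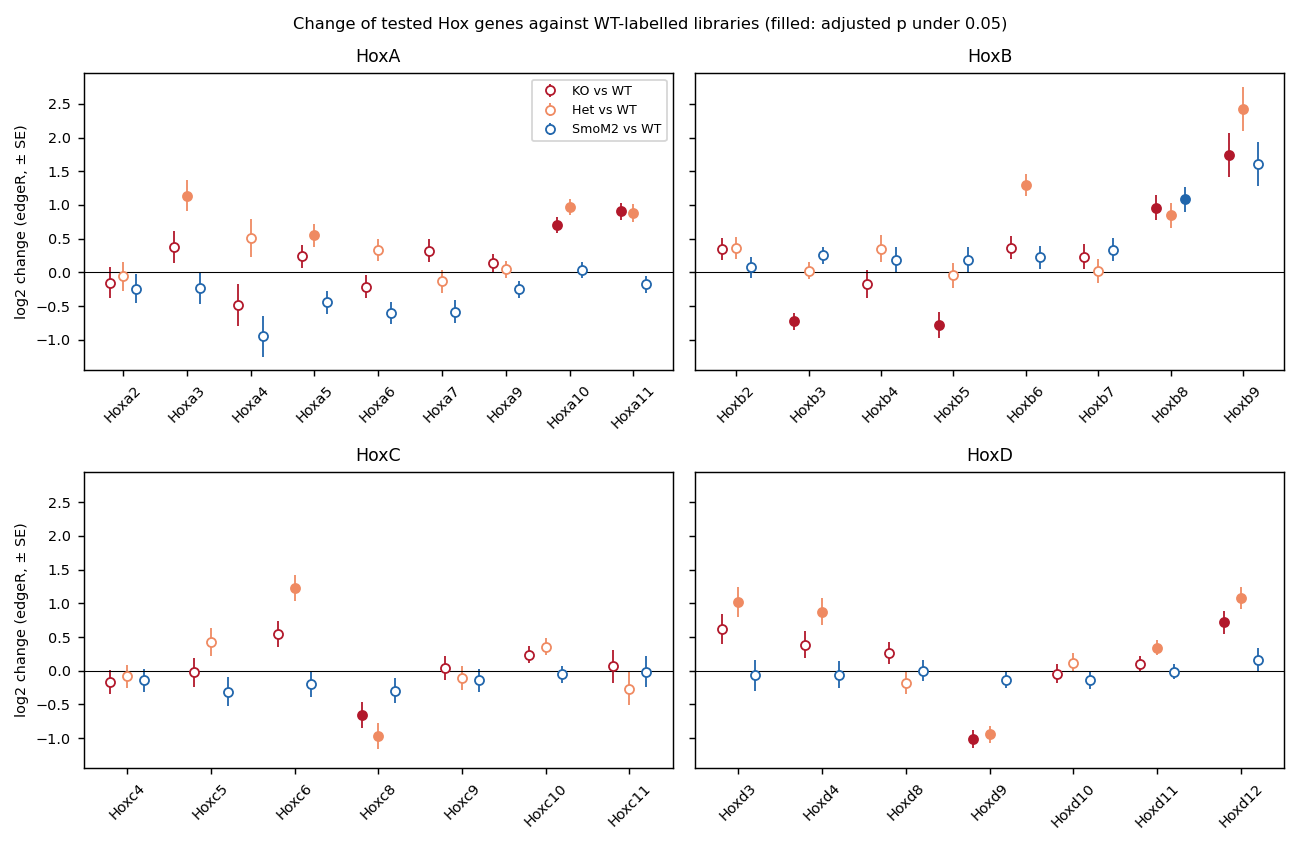
Log2 change of the tested Hox genes shown, against the WT-labelled libraries, with the SE of the edgeR fit as bars, in the order of the paralogue numbers within each cluster. Filled points have an adjusted p under 0.05. Hoxa10, Hoxa11, Hoxb8, Hoxb9 and Hoxd12 are filled above 0 and Hoxc8 and Hoxd9 below 0 in both KO- and Het-labelled comparisons.

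Both comparisons called 7 of the 32 tested members, where 11.9% of all tested genes (1608 genes, 1598 of them with 1 direction in both) were called in both. Since the comparisons share the WT-labelled libraries, their calls are not independent, and a shared direction is read as nothing more than a description. In HoxA, Hoxa11 and Hoxa10 were higher in both, while Hoxa9 was called in neither. Hoxa11, a Hox11 paralogue required with Hoxd11 for branching and growth of the kidney, read 96.0 and 92.1 RPKM in the KO-labelled libraries, 88.6 and 86.5 in the Het-labelled, 51.9 and 44.6 in the WT-labelled and 37.2 and 45.9 in the SmoM2-labelled. All 4 KO- and Het-labelled values lay above all 4 others, and the WT- and SmoM2-labelled values overlapped. Its log2 change was 0.91 (SE 0.13, adjusted p 0.00104) in KO- and 0.88 (SE 0.13, adjusted p 0.00107) in Het- against WT-labelled libraries. Hoxa10, which patterns the lumbar spine and the uterus, read 69.7 and 72.6 RPKM in the KO-labelled libraries, 80.1 and 81.9 in the Het-labelled, 46.8 and 37.0 in the WT-labelled and 40.9 and 43.0 in the SmoM2-labelled. Its libraries parted in the same manner, with a change of 0.71 (SE 0.12, adjusted p 0.00248) in KO- and 0.97 (SE 0.12, adjusted p 0.000407) in Het- against WT-labelled libraries. Exons of Hoxa11 overlap those of the antisense RNA Hoxa11os, and since the strand setting of the counting is not given in the sources used here, reads of these genes cannot be told apart there.

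At the 5′ end of HoxB, Hoxb9 and Hoxb8 were also higher in both comparisons. Hoxb9, a gene of the thoracic skeleton and the mammary gland, read 13.7 and 28.5 RPKM in the KO-labelled libraries, 34.0 and 30.2 in the Het-labelled, 7.67 and 4.45 in the WT-labelled and 22.2 and 13.6 in the SmoM2-labelled. WT-labelled values lay below all 6 others, and the KO-labelled pair was spread widely. The change of 1.74 (SE 0.33, adjusted p 0.00436) in KO- and 2.43 (SE 0.33, adjusted p 0.000683) in Het- against WT-labelled libraries was the largest of any member in both. Hoxb8, which is used in microglial progenitors and the spinal cord, read 24.7 and 30.1 RPKM in the KO-labelled libraries, 23.1 and 25.0 in the Het-labelled, 14.6 and 12.5 in the WT-labelled and 33.5 and 22.3 in the SmoM2-labelled. Here too the WT-labelled libraries were the lowest, while the other 3 groups overlapped. It changed by 0.96 (SE 0.18, adjusted p 0.00470) in KO- and 0.85 (SE 0.18, adjusted p 0.00744) in Het- against WT-labelled libraries. The second call was lost without Het-labelled replicate 2 (adjusted p 0.0562) and with GC and length trends removed (adjusted p 0.142).

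In HoxD, Hoxd12 was higher and Hoxd9 lower in both comparisons. Hoxd12, a gene of the digits and the urogenital tract, read 21.0 and 18.4 RPKM in the KO-labelled libraries, 26.3 and 21.7 in the Het-labelled, 13.4 and 9.67 in the WT-labelled and 13.7 and 11.3 in the SmoM2-labelled. The KO- and Het-labelled libraries were all above the rest, with changes of 0.72 (SE 0.17, adjusted p 0.0132) and 1.08 (SE 0.17, adjusted p 0.00139) against the WT-labelled. The KO-labelled call was lost without KO-labelled replicate 1 (adjusted p 0.0955) and without WT-labelled replicate 2 (adjusted p 0.101). Hoxd9, which acts with its paralogues in the lumbosacral spine and the forelimb, read 29.2 and 25.0 RPKM in the KO-labelled libraries, 26.9 and 27.1 in the Het-labelled, 51.0 and 54.0 in the WT-labelled and 46.1 and 47.2 in the SmoM2-labelled. KO- and Het-labelled values overlapped and lay far below the rest, with changes of -1.02 (SE 0.13, adjusted p 0.000599) and -0.94 (SE 0.13, adjusted p 0.000805). Between these genes on the chromosome, Hoxd10 changed by -0.05 in KO- and 0.12 in Het- against WT-labelled libraries, neither past the threshold, and read 45.6 and 36.6, 41.0 and 46.6, 42.4 and 39.3, and 36.6 and 35.7 RPKM from the KO-labelled to the SmoM2-labelled libraries.

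Hoxc8, a gene of brachial motor neurons and thoracic vertebrae, was the other member that fell in both. It read 25.1 and 18.6 RPKM in the KO-labelled libraries, 14.3 and 19.2 in the Het-labelled, 30.5 and 35.4 in the WT-labelled and 24.2 and 28.3 in the SmoM2-labelled. WT-labelled values were the highest, and the KO- and SmoM2-labelled values overlapped. The change was -0.65 (SE 0.19, adjusted p 0.0309) in KO- and -0.97 (SE 0.19, adjusted p 0.00489) in Het- against WT-labelled libraries. The KO-labelled call was lost without KO-labelled replicate 2 (adjusted p 0.174), without WT-labelled replicate 2 (adjusted p 0.125) and with sex as a covariate (adjusted p 0.0789).

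**Figure D4:**
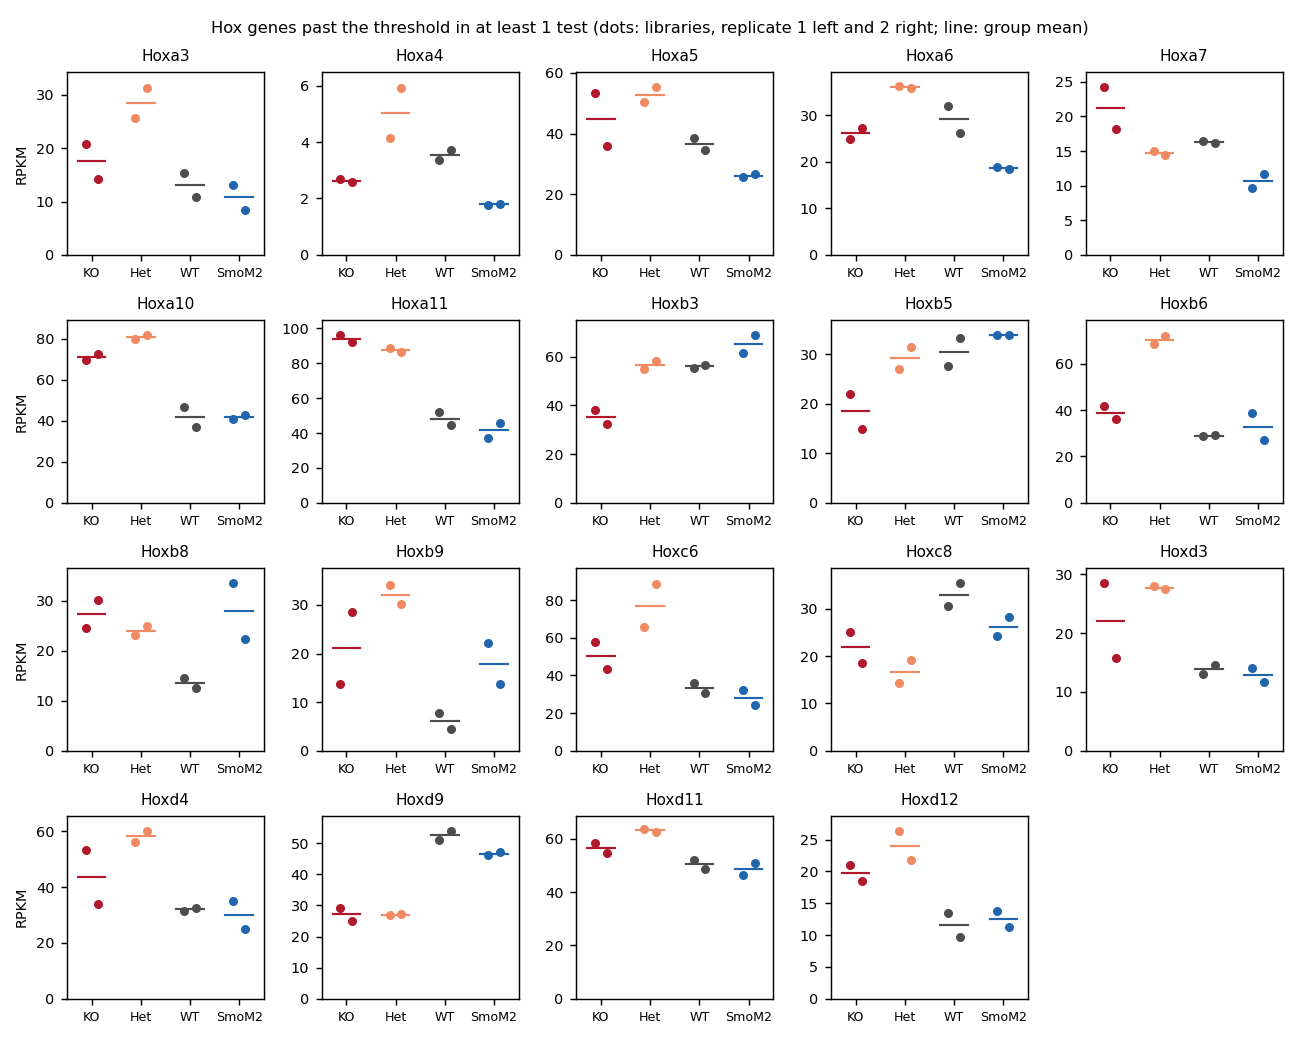
RPKM in each library of the 19 Hox genes that passed the threshold in at least 1 of the 5 tests. Dots are libraries, with replicate 1 on the left, and lines are the means of 2 libraries of each labelled group. For Hoxa11, Hoxa10 and Hoxd12 the KO- and Het-labelled dots lie above all others, and for Hoxd9 below all others.

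The stretches upstream of these genes are shown because both comparisons called them, 4 of the 5 printed as higher and Hoxd9 as lower. The sequences are RefSeq's on GRCm38.p6, the 250 bases before the annotated start, or 214 for Hoxd9 where they meet its first GENCODE exon, written 5′ to 3′ on the gene's strand. CG pairs, the sites that can be methylated, are in capitals. They are chr6:52240855-52241104 (minus strand) for Hoxa10, chr6:52245811-52246060 (minus) for Hoxa11, chr11:96281655-96281904 (plus) for Hoxb8, chr2:74674763-74675012 (plus) for Hoxd12 and chr2:74697513-74697726 (plus) for Hoxd9. Hoxb9 and Hoxc8 are named only.
Hoxa10: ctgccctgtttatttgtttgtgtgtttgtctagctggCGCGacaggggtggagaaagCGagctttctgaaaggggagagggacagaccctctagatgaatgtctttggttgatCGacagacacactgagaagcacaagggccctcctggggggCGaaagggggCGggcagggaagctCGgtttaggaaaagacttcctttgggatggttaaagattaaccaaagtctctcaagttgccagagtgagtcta
Hoxa11: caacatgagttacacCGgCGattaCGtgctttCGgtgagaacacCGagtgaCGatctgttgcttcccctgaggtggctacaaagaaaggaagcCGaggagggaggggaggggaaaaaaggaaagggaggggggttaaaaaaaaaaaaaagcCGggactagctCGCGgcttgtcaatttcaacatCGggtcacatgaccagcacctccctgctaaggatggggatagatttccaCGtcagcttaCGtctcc
Hoxb8: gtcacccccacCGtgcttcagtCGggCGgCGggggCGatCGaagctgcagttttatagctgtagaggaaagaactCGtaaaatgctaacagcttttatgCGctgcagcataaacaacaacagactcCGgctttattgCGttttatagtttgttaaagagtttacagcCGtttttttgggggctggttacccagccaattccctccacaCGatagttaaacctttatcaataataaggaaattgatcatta
Hoxd12: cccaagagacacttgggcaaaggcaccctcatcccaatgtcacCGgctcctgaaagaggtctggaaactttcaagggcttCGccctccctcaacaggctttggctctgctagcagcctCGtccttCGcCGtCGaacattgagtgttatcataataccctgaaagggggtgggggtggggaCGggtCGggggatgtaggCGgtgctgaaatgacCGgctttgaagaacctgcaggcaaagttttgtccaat
Hoxd9: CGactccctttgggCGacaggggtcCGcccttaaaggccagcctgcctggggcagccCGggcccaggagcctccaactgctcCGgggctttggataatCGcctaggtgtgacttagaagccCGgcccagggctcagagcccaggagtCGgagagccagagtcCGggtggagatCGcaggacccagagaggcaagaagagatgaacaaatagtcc
They hold 7 CG pairs for Hoxa10, 13 for Hoxa11, 12 for Hoxb8, 10 for Hoxd12 and 10 for Hoxd9. A second RefSeq start of Hoxa10 lies 5915 bases downstream, and the 250 bases before it hold 20 CG pairs. In the Hoxa11 window 98 bases lie in exons of Hoxa11os.

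RefSeq's promoter table, with 250 bases before and 50 after each start, held 24 windows for 22 of the 39 members. Their median was 14.5 CG pairs and 57.7% GC, where all 32851 windows had medians of 7 and 52.7%. A core Gli motif, GACCACCCA, searched on both strands, was in 0 of the 24 Hox windows and in 0.253% of all windows. The Pbx-Hox motif TGATTNAT was in windows of Hoxa2 and Hoxd11 (8.33% of the Hox windows and 3.22% of all). The Meis motif TGACAG was in windows of Hoxa2 and Hoxa3 (8.33% and 19.2%), and TATAAA in those of Hoxa10, Hoxb8, Hoxd4 and Hoxd13 (16.7% and 13.6%). No motif contains another. Among the windows printed, Hoxb8 holds the TATA letters, on the opposite strand, at 199 and at 110 bases before its start, and the printed windows of Hoxa10, Hoxa11, Hoxd12 and Hoxd9 hold no match. The match of Hoxa10 lies in the window of its second start. A match is a description of letters, not a bound site.

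Members called in KO- against WT-labelled libraries alone were both in HoxB and lower. Hoxb3, a hindbrain and pharyngeal arch gene, read 38.2 and 32.3 RPKM in the KO-labelled libraries, 54.8 and 58.2 in the Het-labelled, 55.6 and 56.5 in the WT-labelled and 61.5 and 69.1 in the SmoM2-labelled. Its KO-labelled libraries lay below all 6 others, with a change of -0.73 (SE 0.13, adjusted p 0.00324) against the WT-labelled and -0.76 (SE 0.13, adjusted p 0.00900) against the Het-labelled. Hoxb5, known from the vagal neural crest and the gut's nerve cells, read 22.0 and 14.9 RPKM in the KO-labelled libraries, 27.0 and 31.4 in the Het-labelled, 27.6 and 33.2 in the WT-labelled and 33.9 and 33.9 in the SmoM2-labelled. The KO-labelled values were again the lowest, with a change of -0.78 (SE 0.19, adjusted p 0.0152) against the WT-labelled, lost without KO-labelled replicate 2 (adjusted p 0.0876) or WT-labelled replicate 2 (adjusted p 0.0686). In Het- against WT-labelled libraries these genes changed by 0.03 and -0.04, neither past the threshold. Exons of Hoxb3 and Hoxb5 overlap those of the opposite-strand RNAs Hoxb3os and Hoxb5os.

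KO- and Het-labelled libraries were also compared directly, which called 4 of 32 Hox genes, where 9.43% of all tested genes passed. All 4, Hoxb3, Hoxb5, Hoxb6 and Hoxc6, had lower KO-labelled than Het-labelled values, and of all genes 5.1% passed as lower and 4.33% as higher. The median of the 32 was -0.20, beside 0.02 for all genes. Both KO-labelled libraries were male and both Het-labelled female, so sex separates these groups completely and is estimated from the other groups alone. With sex as a covariate 6 Hox genes were called, all lower, 3 of them among these 4, and Hoxb5 was not (log2 -0.55, adjusted p 0.202, against -0.73, adjusted p 0.0375). The count over all genes with that covariate is not given here. Hoxb6, a gene of the posterior lateral mesoderm and limb bud, read 41.8 and 36.0 RPKM in the KO-labelled libraries, 68.4 and 72.2 in the Het-labelled, 28.7 and 29.1 in the WT-labelled and 38.9 and 27.0 in the SmoM2-labelled. Its Het-labelled libraries stood above all others, with changes of 1.30 (SE 0.17, adjusted p 0.000555) in Het- against WT-labelled and of -0.93 (SE 0.17, adjusted p 0.0112) between KO- and Het-labelled libraries. Hoxc6, which patterns thoracic vertebrae and the forelimb level, read 57.7 and 43.4 RPKM in the KO-labelled libraries, 65.5 and 88.4 in the Het-labelled, 36.0 and 30.6 in the WT-labelled and 32.1 and 24.4 in the SmoM2-labelled. The KO-labelled libraries lay between the Het-labelled and the rest, with changes of 1.23 (SE 0.19, adjusted p 0.00146) in Het- against WT-labelled and of -0.68 (SE 0.19, adjusted p 0.0491) between KO- and Het-labelled libraries. Of 18 alternatives, 6 lost the latter call, among them total listed counts (adjusted p 0.0693) and totals implied by RPKM (adjusted p 0.0656). Between KO- and Het-labelled libraries the Hoxb5 call was lost in 4, the Hoxb6 call in 3 and the Hoxb3 call in 1. The KO- against Het-labelled count of 4 fell to 0 without Het-labelled replicate 1 and to 1 without Het-labelled replicate 2 or KO-labelled replicate 2, and it was 9 without a filter on low counts.

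Anterior and central members of HoxA and HoxD were called in the Het-labelled comparison and not in the KO-labelled one. Hoxa3, required for thymus and parathyroid, read 20.9 and 14.3 RPKM in the KO-labelled libraries, 25.7 and 31.2 in the Het-labelled, 15.3 and 10.9 in the WT-labelled and 13.2 and 8.36 in the SmoM2-labelled. Hoxd3, a gene of the upper neck vertebrae, read 28.5 and 15.8 RPKM in the KO-labelled libraries, 27.9 and 27.4 in the Het-labelled, 13.0 and 14.6 in the WT-labelled and 14.1 and 11.6 in the SmoM2-labelled. Hoxd4, its neighbour with a related role, read 53.3 and 34.1 RPKM in the KO-labelled libraries, 56.3 and 60.1 in the Het-labelled, 31.6 and 32.5 in the WT-labelled and 35.0 and 25.1 in the SmoM2-labelled. In each of these genes the Het-labelled values were all above the WT-labelled, and KO-labelled replicate 1 was high while replicate 2 lay near the WT-labelled libraries. Of the stroma markers, Col3a1 (24.0 and 2.73 RPKM) and Foxd1 (4.42 and 1.29) also differed within the KO-labelled pair, while Tcf21 (92.5 and 93.8) was even. Their part in this split was not tested. The Het- against WT-labelled changes were 1.14 (SE 0.23, adjusted p 0.00574) for Hoxa3, 1.02 (SE 0.22, adjusted p 0.00816) for Hoxd3 and 0.87 (SE 0.20, adjusted p 0.0102) for Hoxd4, the last lost without Het-labelled replicate 2 (adjusted p 0.0647). In KO- against WT-labelled libraries the changes were 0.37, 0.62 and 0.39, none past the threshold, and none of these genes was called between KO- and Het-labelled libraries. Exons of Hoxd3 and Hoxd4 overlap each other and the opposite-strand RNA Hoxd3os1, so that their counts are uncertain.

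Smaller changes in the same comparison were seen in Hoxa5 and Hoxd11. Hoxa5, a gene of lung and diaphragm development, read 53.5 and 36.0 RPKM in the KO-labelled libraries, 50.3 and 55.4 in the Het-labelled, 38.5 and 34.7 in the WT-labelled and 25.6 and 26.7 in the SmoM2-labelled. Its Het- against WT-labelled change was 0.55 (SE 0.17, adjusted p 0.0334) and was lost without either Het-labelled or either WT-labelled replicate, with adjusted p between 0.0823 and 0.192, and with sex as a covariate (adjusted p 0.0563). Hoxd11, the Hox11 paralogue that acts with Hoxa11 in the kidney, read 58.2 and 54.5 RPKM in the KO-labelled libraries, 63.8 and 62.5 in the Het-labelled, 52.0 and 48.7 in the WT-labelled and 46.2 and 50.9 in the SmoM2-labelled. The change of 0.34 (SE 0.11, adjusted p 0.0461) passed in 7 of 18 alternatives, was lost in the other 11, and was 0.17 with GC and length trends removed (adjusted p 0.266). The 4-group test did not call Hoxd11 (adjusted p 0.0639). Thus of the Hox11 paralogues, Hoxa11 was called in both comparisons, Hoxd11 in 1, and Hoxc11 in none.

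The 4-group test added Hoxa4, Hoxa6 and Hoxa7, which no comparison called between single pairs of groups. Hoxa4, a gene of the neck vertebrae, read 2.70 and 2.58 RPKM in the KO-labelled libraries, 4.13 and 5.91 in the Het-labelled, 3.36 and 3.73 in the WT-labelled and 1.77 and 1.81 in the SmoM2-labelled (adjusted p 0.0120). Hoxa6, used in the thoracic region, read 24.9 and 27.3 RPKM in the KO-labelled libraries, 36.2 and 35.8 in the Het-labelled, 32.1 and 26.2 in the WT-labelled and 18.8 and 18.4 in the SmoM2-labelled (adjusted p 0.00670). Hoxa7, likewise thoracic, read 24.2 and 18.2 RPKM in the KO-labelled libraries, 15.0 and 14.4 in the Het-labelled, 16.5 and 16.1 in the WT-labelled and 9.64 and 11.6 in the SmoM2-labelled (adjusted p 0.0101). SmoM2-labelled libraries were the lowest in all 3 genes, and the highest were Het-labelled for Hoxa4 and Hoxa6 and KO-labelled for Hoxa7. The calls of Hoxa4 and Hoxa7 were lost without Het-labelled replicate 2 (adjusted p 0.0739) and without SmoM2-labelled replicate 1 (adjusted p 0.0631) respectively.

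SmoM2- against WT-labelled libraries, the comparison for an active Smo, gave a call in 1 of 32 Hox genes, where 0.223% of all tested genes passed, 0.156% as higher and 0.0669% as lower. The gene was Hoxb8, with a change of 1.08 (SE 0.18, adjusted p 0.0427), and its values of 33.5 and 22.3 RPKM lay above the WT-labelled 14.6 and 12.5. The adjacent Hoxb9 differed by 1.61 (SE 0.32, adjusted p 0.0979) and did not pass, although its 22.2 and 13.6 RPKM did not overlap with the WT-labelled 7.67 and 4.45. All 8 tested HoxB genes had a positive difference, from 0.07 to 1.61, while 1 of 10 in HoxA, 0 of 7 in HoxC and 2 of 7 in HoxD did. The HoxA differences ranged from -0.95 for Hoxa4 (adjusted p 0.357) to 0.04 for Hoxa10, and the median of the 32 was -0.10 beside 0.00 for all genes. The call of Hoxb8 was lost in 10 of 19 alternatives, with adjusted p up to 0.155 without SmoM2-labelled replicate 1. It was likewise lost without KO-labelled replicate 1 (adjusted p 0.0670) or 2 (adjusted p 0.0649) and without WT-labelled replicate 1 (adjusted p 0.133) or 2 (adjusted p 0.0703), while its log2 difference stayed between 0.78 and 1.35 in all alternatives.

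No comparison called 13 of the tested members, which included the highest of all. Hoxc10 differed from the WT-labelled libraries by 0.24 in the KO-labelled and 0.35 in the Het-labelled, and its 4-group adjusted p was 0.0538. Hoxa9, known from blood stem cells and the posterior trunk, read 54.9 and 48.0 RPKM in the KO-labelled libraries, 41.5 and 49.8 in the Het-labelled, 47.1 and 42.5 in the WT-labelled and 35.7 and 37.6 in the SmoM2-labelled. Hoxb2, a hindbrain gene, read 54.3 and 53.7, 49.6 and 53.5, 35.3 and 45.6, and 38.1 and 45.2 RPKM in the same order of groups, with KO- and Het-labelled values above the rest. In HoxC, Hoxc4 read 50.3 and 37.6, 41.1 and 47.2, 43.1 and 51.3, and 38.8 and 44.8 RPKM, with every group overlapping every other. Hoxc9, a gene of thoracic motor neurons, read 45.7 and 31.4, 30.2 and 35.8, 35.7 and 36.0, and 29.7 and 33.6 RPKM, so that the KO-labelled pair enclosed the WT-labelled one.

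The other uncalled members had lower levels. Hoxb4, which supports blood stem cells, read 20.4 and 13.4 RPKM in the KO-labelled libraries, 21.4 and 24.9 in the Het-labelled, 15.9 and 20.6 in the WT-labelled and 20.7 and 19.99 in the SmoM2-labelled. Hoxb7, used in the thoracic region and in the ureteric bud lineage, read 16.8 and 17.7, 12.8 and 15.4, 13.3 and 14.8, and 17.5 and 17.2 RPKM in that order. Hoxc5 read 13.5 and 9.89, 14.1 and 16.2, 13.7 and 9.26, and 10.3 and 7.62 RPKM, and its exons overlap those of Hoxc10 on the same strand. The remaining pair were the Hox11 paralogue Hoxc11, at 17.0 and 18.6, 11.6 and 15.3, 17.8 and 14.9, and 12.3 and 19.2 RPKM, and Hoxd8, at 16.6 and 15.0, 10.3 and 11.8, 14.0 and 11.4, and 13.3 and 11.4 RPKM. For Hoxb4, Hoxc5 and Hoxc11 the WT-labelled values lay within or across those of at least 1 other group, and for Hoxb7 the SmoM2- and KO-labelled values lay above the rest. The KO-labelled values of Hoxd8 were above its WT-labelled values as well. A p that misses the threshold with 2 libraries does not show that these genes are unchanged.

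By position along the clusters, calls against the WT-labelled libraries came from all regions. Of the paralogue groups 1 to 3, 1 of 6 tested members was called in KO- and 2 of 6 in Het- against WT-labelled libraries. Groups 4 to 8 gave 3 and 6 of 15, and groups 9 to 13 gave 5 and 6 of 11. Of all tested genes 23% and 25.3% were called in these comparisons, and with so few members a region no difference between regions was tested. In the group of Hox9 paralogues Hoxb9 was higher and Hoxd9 lower while Hoxa9 and Hoxc9 were not called, and in group 8 Hoxb8 was higher and Hoxc8 lower while Hoxd8 was not called. Foxd1 was lower and Tcf21, in the stroma list and also known from kidney mesenchyme, higher in both of these comparisons, early nephron markers were higher for 8 of 10 genes in the KO-labelled and 2 of 10 in the Het-labelled, and immediate early genes for 4 and 6 of 8. Their part in the Hox changes was not tested. With sex as a covariate the counts of called Hox genes were 9 and 13, and those over all genes are not given here.

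Meis1, a partner that binds DNA with Hox proteins and is also known from kidney stroma, had a larger log2 change than any Hox gene in the KO- and Het-labelled comparisons. It read 21.2 and 24.6 RPKM in the KO-labelled libraries, 27.0 and 23.4 in the Het-labelled, 4.18 and 2.71 in the WT-labelled and 2.42 and 2.68 in the SmoM2-labelled. The KO- and Het-labelled libraries were all far above the others, with changes of 2.68 (SE 0.18, adjusted p 2.29e-05) and 2.89 (SE 0.18, adjusted p 1.16e-05). Of 8 Pbx, Meis and Pknox cofactor genes, 2 were higher and 0 lower in KO- against WT-labelled libraries, 3 higher and 0 lower in Het- against WT-labelled, and 0 called in SmoM2- against WT-labelled or KO- against Het-labelled. Of all tested genes 23%, 25.3%, 0.223% and 9.43% were called in these comparisons, in that order. Pbx3 was at 10.4 and 11.3 RPKM in the KO-labelled, 7.20 and 8.64 in the Het-labelled and 5.67 and 5.59 in the WT-labelled libraries, a change of 0.88 (adjusted p 0.00444) in the KO-labelled. The Het-labelled call of Pbx3 was lost in 12 of 18 alternatives. Meis3, named after its values were seen, was the other higher gene of the Het-labelled comparison (log2 0.81, adjusted p 0.00908).

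**Figure D5:**
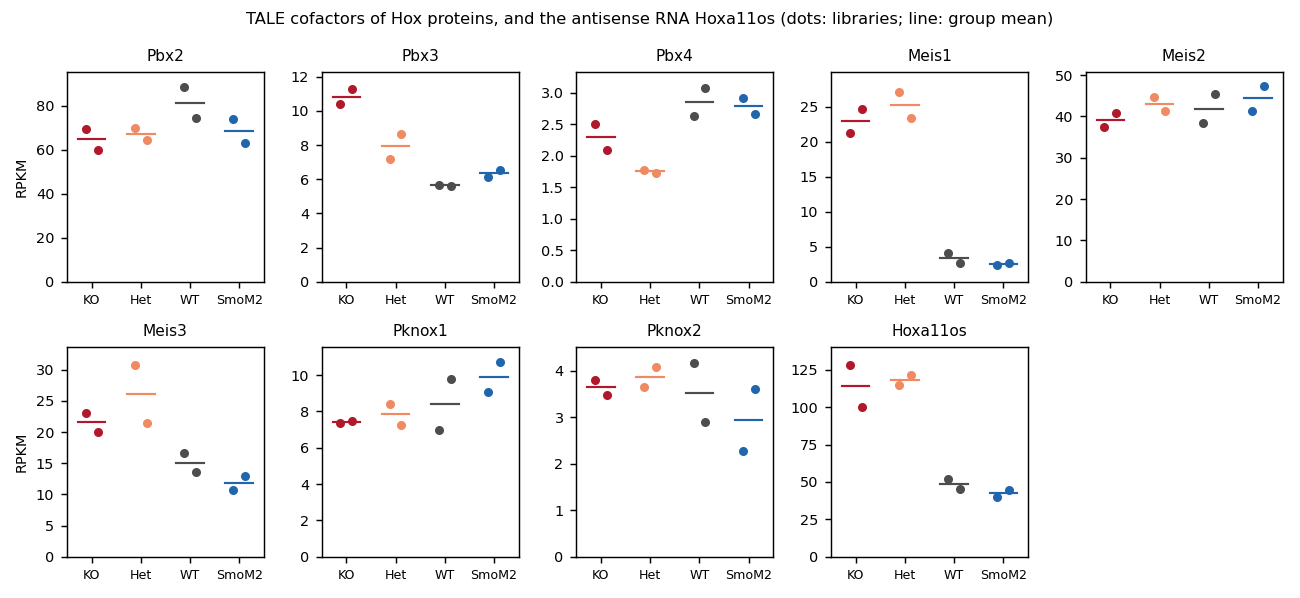
RPKM in each library of 8 Pbx, Meis and Pknox genes, whose proteins bind DNA with Hox proteins, and of Hoxa11os, the antisense RNA of Hoxa11. Dots are libraries and lines are means of 2 libraries per labelled group. Meis1 lies between 21.2 and 27.0 RPKM in all KO- and Het-labelled libraries, and the other groups lie between 2.42 and 4.18.

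Genes that act with or downstream of the Hox11 paralogues in the kidney were listed as 9 genes, all of them tested. In KO- against WT-labelled libraries 2 were higher and 1 lower, in Het- against WT-labelled 4 were higher and 0 lower, in SmoM2- against WT-labelled 0 were called, and in KO- against Het-labelled 1 was higher, Pax8, and 1 lower, Gdnf. The shares of all tested genes called were 23%, 25.3%, 0.223% and 9.43% in this order of comparisons. Six2 and Sall1, named after their values were seen, were higher in the Het-labelled comparison. Pax8, a partner of Pax2 that rises as nephrons form, was at 122 and 145 RPKM in the KO-labelled, 85.5 and 93.5 in the Het-labelled and 51.3 and 53.4 in the WT-labelled libraries (log2 1.29, adjusted p 0.000141 and 0.79, adjusted p 0.00150). Itga8, an integrin subunit of the kidney mesenchyme, was at 50.7 and 62.2 RPKM in the KO-labelled, 61.8 and 57.7 in the Het-labelled and 38.8 and 38.1 in the WT-labelled libraries (log2 0.49, adjusted p 0.0186 and 0.65, adjusted p 0.00461). Its KO-labelled call was lost in 4 of 19 alternatives, among them without KO-labelled replicate 2 (adjusted p 0.109), WT-labelled replicate 1 (adjusted p 0.0792) or WT-labelled replicate 2 (adjusted p 0.0622), and its Het-labelled call without Het-labelled replicate 1 (adjusted p 0.0554). Gdnf, the signal that draws the ureteric bud into the mesenchyme, was at 20.6 and 14.8 RPKM in the KO-labelled, 24.7 and 31.8 in the Het-labelled and 27.3 and 28.1 in the WT-labelled libraries. The change of -0.70 between KO- and WT-labelled libraries (adjusted p 0.0309) was lost in 5 of 19 alternatives, among them without KO-labelled replicate 2 (adjusted p 0.178), WT-labelled replicate 1 (adjusted p 0.0510) or WT-labelled replicate 2 (adjusted p 0.0797). Between KO- and Het-labelled libraries the Pax8 call was lost in 4 and the Gdnf call in 6 of 18 alternatives. Both were lost with sex as a covariate, Pax8 at 0.57 (adjusted p 0.0641, against 0.50 and 0.0303) and Gdnf at -0.41 (adjusted p 0.334, against -0.75 and 0.0444), and both without KO-labelled replicate 2 (adjusted p 0.134 and 0.206), Het-labelled replicate 1 (adjusted p 0.233 and 0.107) or Het-labelled replicate 2 (adjusted p 0.111 and 0.223). Without KO-labelled replicate 1 only the Gdnf call was lost of these (adjusted p 0.0556).

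Regulators that set Hox expression in the embryo were listed as 21 genes, of which 16 were tested. Cdx2 and Cdx4, which open the clusters in the tail bud, were listed at 0 in every library. In KO- against WT-labelled libraries 5 were higher and 2 lower, in Het- against WT-labelled 3 and 3, in SmoM2- against WT-labelled 0 were called, and in KO- against Het-labelled 1 was higher and 2 lower. Beside these counts, 23%, 25.3%, 0.223% and 9.43% of all tested genes were called, in the same order. Men1, a part of a histone methyltransferase complex that keeps Hox genes active, was higher in both comparisons with WT-labelled libraries and Rarb, a retinoic acid receptor, lower in both, while the Polycomb gene Ezh2 was higher in the KO-labelled and Suz12 lower in the Het-labelled. These 4 were named after their values were seen. Gdf11, a ligand that sets the timing of posterior Hox genes, was at 7.39 and 9.06 RPKM in the KO-labelled, 10.2 and 10.4 in the Het-labelled and 5.17 and 4.22 in the WT-labelled libraries (log2 0.75, adjusted p 0.00424 and 1.15, adjusted p 0.000370). Kdm6a, an eraser of the Polycomb mark, changed by -0.87 (adjusted p 0.0323) and Gmnn, which binds Hox and Polycomb proteins, by 0.82 (adjusted p 0.0148) in KO- against WT-labelled libraries. The changes of Kdm6a and Gmnn were lost in 5 and 4 of 19 alternatives, both of them without KO-labelled replicate 1, without KO-labelled replicate 2 and with GC and length trends removed, and Gmnn also without WT-labelled replicate 1 (adjusted p 0.0889). The Kdm6a change was -0.50 with sex as a covariate (adjusted p 0.0503) and -0.51 without WT-labelled replicate 2 (adjusted p 0.193). Kdm6a was at 4.70 and 6.28 RPKM in the KO-labelled libraries, both male, and at 7.60 in the male and 11.6 in the female WT-labelled library.

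Of 18 noncoding RNAs of the clusters in the table, 8 were tested, and Hoxa11os followed Hoxa11. It was at 128 and 100 RPKM in the KO-labelled libraries, 115 and 121 in the Het-labelled, 52.1 and 45.1 in the WT-labelled and 40.2 and 44.5 in the SmoM2-labelled. All KO- and Het-labelled values exceeded all others, with changes of 1.18 (SE 0.14, adjusted p 0.000420) and 1.30 (SE 0.14, adjusted p 0.000190), and the shared exons with Hoxa11 apply here as well. Besides Hoxa11os, Hotair of the HoxC cluster, named after its values were seen, was lower in Het- against WT-labelled libraries (log2 -2.02, adjusted p 0.0390), at 0.440 and 0.0616 against 1.39 and 0.855 RPKM. That made 1 of the 8 called in KO- and 2 in Het- against WT-labelled libraries, where 23% and 25.3% of all tested genes were. In SmoM2- against WT-labelled and KO- against Het-labelled libraries 0 of the 8 were called, beside 0.223% and 9.43% of all tested genes.

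Genes next to the clusters were given the same tests. Over all tested genes, 23% were called in KO- and 25.3% in Het- against WT-labelled libraries. The shares were 0.223% in SmoM2- against WT-labelled and 9.43% in KO- against Het-labelled libraries. Evx1 and Evx2, the homeobox genes beside Hoxa13 and Hoxd13, were listed at 0 in every library. Of 6 genes flanking HoxA and 6 flanking HoxD, 0 were called in KO- against WT-labelled libraries, and in Het- against WT-labelled 1 of each was lower, Tax1bp1 and Atf2. Beside HoxB, 2 of 4 tested were called in the KO-labelled comparison and 0 in the Het-labelled, Skap1 at -2.08 (adjusted p 0.0267) on 2 and 4 counts in the KO-labelled libraries and Cbx1 at 0.41 (adjusted p 0.0214). Skap1 lost the call in 4 of 18 alternatives and Cbx1 in 10 of 19. Beside HoxC, 1 of 6 was called in the KO-labelled comparison and 2 in the Het-labelled. Nfe2, a blood transcription factor, was higher in both, by 1.95 (adjusted p 0.00289) and 2.18 (adjusted p 0.00122), at 4.16 and 2.48 RPKM in the KO-labelled, 3.39 and 4.02 in the Het-labelled and 0.962 and 0.680 in the WT-labelled libraries. The 5 erythroid markers, which share that lineage, summed to 9.92 to 34.6 RPKM in the KO-labelled, 9.50 to 19.2 in the Het-labelled and 2.92 to 3.72 in the WT-labelled libraries, and their part in the Nfe2 change was not tested. Hnrnpa1, the other HoxC neighbour called in the Het-labelled comparison, was lower, and it, Tax1bp1 and Atf2 were named after their values were seen. In SmoM2- against WT-labelled libraries 0 of the tested flanking genes were called, and in KO- against Het-labelled Cbx1 and Hnrnpa3, a HoxD neighbour, were higher. That call of Cbx1 was lost in 8 of 18 alternatives, without either KO-, Het- or SmoM2-labelled replicate among them, and its change of 0.44 was 0.10 with GC and length trends removed (adjusted p 0.630).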

How the data were processed

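Polyadenylated RNA of sorted cells from 8 samples was sequenced, 2 in each of 4 groups read from the labels. The submitters' processing notes name STAR, featureCounts of Subread and mm10, with no versions. Per the file headers, the authors deposited raw counts per gene, gene lengths and RPKM values in a single table. Annotation and strand setting are not given in the sources used here. Dividing each count by length and RPKM returned 1 total per library, of which the listed counts were 81.1% to 83.3%.

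The test on the counts was that of edgeR 4.0.16 (R 4.3.3): filterByExpr on groups (13459 genes kept), TMM scaling, 1 mean per group over all 8 libraries with 4 residual degrees of freedom, two-sided quasi-likelihood tests and Benjamini-Hochberg adjustment over all tested genes. The fit draws each gene's dispersion toward a trend over all tested genes, so the p-values rest on more than these 4 degrees of freedom. SE is the absolute log2 change over the root of the F statistic. The biological coefficient of variation was 13.5%. Replicates differed by more than counting noise. Positions and exon overlaps are from GENCODE on GRCm38, promoters from RefSeq on GRCm38.p6. A fold against a group with 3 counts or fewer per library was not computed. The labels mention no molecular identifiers.

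Every Hox row was a member. Library values are given for members with a mean RPKM of at least 10 or called in any of the 5 tests. From each other gene list up to 3 genes are named, by the largest called change in KO- against WT-labelled libraries. Members and lists were chosen with earlier results of these data known. The alternatives were other scalings and filters, DESeq2 1.42.0, fits of only the groups compared, without each library, with a replicate block, with sex, and after removing each library's trends over GC content and gene length (97.9% of genes had a GC value). Leaving out both Het-labelled libraries was added after seeing the data. The edgeR steps were tested on simulated counts. Some genes are not reported here, and gene lists are counted and figures drawn without them. All 8 libraries were used.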

Additional observations from a re-analysis of the deposited data

How the results depend on the processing

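Of 28 Hox changes followed over the alternatives, 16 kept their call in every one run, 12 lost it in at least 1, and 0 values reversed. The number of Hox genes called in SmoM2- against WT-labelled libraries was 1. It was 0 with total listed counts, with totals implied by RPKM, with only the groups compared, with GC content and gene length trends removed and without both Het-labelled libraries, and 2 with every gene with a count and with the sex covariate. Leaving out single libraries gave 0 to 1. In KO- against Het-labelled libraries the count was 4, was 9 with every gene with a count, and ranged from 0 to 5 without single libraries. The cause of these shifts was not tested. Counts ranged from 7 to 11 in KO- against WT-labelled, from 10 to 14 in Het- against WT-labelled and from 16 to 20 in the 4-group test when single libraries were left out. Shares of counts gave 22.5% for HoxC and 25.8% for HoxD in place of 27.7% and 21.5%, since RPKM divides by gene length. Over all genes, 1269 were called in KO- against Het-labelled libraries and 352 with GC and length trends removed. In SmoM2- against WT-labelled libraries 30 of all genes were called. That number was 16 with total listed counts, 27 with totals implied by RPKM and 19 with GC and length trends removed. All-gene counts for the other settings, the replicate block among them, are not given here. Shifts in Hox calls there cannot be told apart from shifts in all calls.

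Replicate numbers recur in each group, but the labels tie them to no shared litter or day. Deviations of same-numbered libraries correlated with r of 0.39 for SmoM2- and WT-labelled libraries, and with r from -0.06 to 0.10 for the other group pairs. In the SmoM2- and WT-labelled groups replicate 1 was male and replicate 2 female. The main fit assumed no pairing, also for this pair of groups. With the replicate block, 9 Hox genes were called in KO- against WT-labelled, 13 in Het- against WT-labelled, 1 in SmoM2- against WT-labelled, 5 in KO- against Het-labelled libraries and 20 in the 4-group test. With 2 libraries per group and as few as 4422305 counts, a change that missed the threshold is not shown to be absent, and no detection limit by level was measured.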
